A study of Danio rerio with 4 samples.

Results

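Transcripts that encode small proteins, taken as those with a coding sequence of 1 to 100 codons, were examined in footprints of single ribosomes (monosomes) and of stacked ribosome pairs (disomes) from zebrafish embryos. Of 59876 transcripts listed, 46061 had a coding length and 2678 of these had 1 to 100 codons. No footprint was counted on 1425 of the 2678, and 242 had at least 100 counts summed over the 4 libraries. After 19 transcripts with the same 4 counts as an earlier one and 2 mitochondrial transcripts were left out, 221 small-protein transcripts remained, or 0.480% of those with a coding length. They are the counted end of the length class, because the count minimum removed most short coding sequences. The same rules without the length limit gave 8636 distinct transcripts.

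All libraries came from whole embryos at 4 hpf, in the blastula period, from wild-type fish of strain AB. Every group shared a mix of sfGFP reporter mRNAs injected at the 1-cell stage and lysis in a buffer with cycloheximide, an inhibitor of translation elongation. Footprints were made with RNase I, and 2 disome and 2 monosome libraries were sequenced, with totals of 473057 and 364830 counts for disome replicates 1 and 2 and of 2749837 and 3814224 counts for monosome replicates 1 and 2. The labels do not say whether replicates came from separate clutches, so the tests measure the spread between these libraries, which may be technical.

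A ribosome protects a short stretch of mRNA from nuclease, and the number of such footprints on a coding sequence reports how many ribosomes were translating it. When a trailing ribosome runs into a stalled one, the pair protects a longer stretch, the disome footprint, and the E3 ligase Znf598 recognizes such collided ribosomes and starts quality control of the stalled nascent chain. Small proteins include ribosomal proteins, subunits of respiratory complexes, ubiquitin-like proteins and secreted peptides, and the class in an annotation also holds truncated coding sequences of alternative transcripts of longer genes. On a short coding sequence, the steps of initiation and termination take up a larger part of the time that a ribosome spends on the mRNA. Transcripts are given here by their coding length, because gene names and sequences of the transcripts were not analysed here, and neither were marker genes of the blastula. The labelled embryonic stage was therefore not checked against markers.

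The 221 small-protein transcripts received 7848 and 5897 counts in disome replicates 1 and 2, and 39381 and 54222 in monosome replicates 1 and 2. A transcript had 21 disome and 220 monosome counts at the median, and 63 of the 221 had fewer than 10 disome counts over both libraries. Counts ranged from 0 to 867 in disome replicate 1, from 0 to 662 in disome replicate 2, from 21 to 3031 in monosome replicate 1 and from 32 to 3477 in monosome replicate 2. The disome value is thus the less certain side of nearly every ratio.

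Together, the small-protein transcripts held 1.66% of disome replicate 1 (95% Clopper-Pearson interval 1.62 to 1.70%) and 1.62% of disome replicate 2 (1.58 to 1.66%). They held 1.43% of monosome replicate 1 (1.42 to 1.45%) and 1.42% of monosome replicate 2 (1.41 to 1.43%). The disome shares were the higher ones in both replicates, with means of 1.64% ± 0.0301 and 1.43% ± 0.00746 (SD, n = 2 each) and a difference of 0.211 percentage points. An exact permutation test over the libraries gave a two-sided p of 0.333, the smallest that 2 against 2 libraries allow, so the design cannot pass a threshold for this value. Intervals on shares cover counting error only. The surplus lay in a sum to which few transcripts added much. In CPM (counts scaled to equal library totals), a 47-codon transcript had 1194 and 948 in disomes and 65.8 and 65.8 in monosomes. A 71-codon one had 1833 and 1815 in disomes and 1102 and 912 in monosomes. Of the 221, 121 had less CPM in each disome library than in either monosome library, and 59 had more. The surplus thus does not describe most of these transcripts. A surplus in summed disome counts was not limited to the small proteins. Transcripts of 101 to 200 codons held 18.6 and 19.0% of the disome counts and 14.7 and 15.3% of the monosome counts, a wider gap.

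Few transcripts held much of these counts, and more so in disomes. The 10 small-protein transcripts with most counts in a library held 42.4 and 40.6% of the small-protein counts of the disome libraries and 34.4 and 33.1% of those of the monosome libraries. The single richest held 11.05 and 11.2% of them in disomes, as against 7.70 and 6.41% in monosomes. Of the 10 richest in disome and the 10 richest in monosome footprints, 5 were shared.

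Monosome density, given as CPM (counts scaled to equal library totals) per 100 codons and averaged over both monosome libraries, had a median of 45.7 with quartiles of 26.7 and 83.6. The medians of the separate libraries were 45.6 and 44.9. In plain counts the median was 3.0 footprints per codon over both libraries, with quartiles of 1.76 and 5.42. The lowest density was 10.3 and the highest 1418. Because 100 counts on a short coding sequence already amount to many per codon, the minimum sets a floor under these densities that is lower in longer classes, and the medians of 26.5 at 101 to 200 codons, 14.7 at 201 to 400, 7.60 at 401 to 1000, 3.82 at 1001 to 2000 and 1.97 above 2000 codons cannot be compared with 45.7 as levels of translation.

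A fixed density does not use the minimum of 100 counts. Over all non-mitochondrial transcripts listed, 10.8% of those of 1 to 100 codons (290 of 2676) reached 1 monosome footprint per codon over both libraries, beside 12.4% at 101 to 200, 8.58% at 201 to 400, 6.49% at 401 to 1000, 2.62% at 1001 to 2000 and 0.484% above 2000 codons. Taken only over transcripts with a monosome count, which keeps 1233 of the 2676 of 1 to 100 codons, the share was 23.5% at 1 to 100 and 21.9% at 101 to 200 codons, so the order of these classes at 1 footprint per codon depends on the denominator. At 5 and 10 footprints per codon it did not. Of all listed, 2.54% of the small proteins and 4.02% of the 101 to 200 class reached 5, and 0.972% (26 transcripts) and 2.45% (188 of 7658) reached 10. Over those with a monosome count, the shares were 5.52 and 7.13% at 5 footprints and 2.11 and 4.35% at 10. Of the 221 small-protein transcripts themselves, 152 had at least 2, 64 at least 5, 26 at least 10, 11 at least 20 and 2 at least 50 footprints per codon.

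The densest coding sequence had 71 codons, with 3031 and 3477 counts in monosome replicates 1 and 2, or 91.7 footprints per codon. It also had the most disome counts among those densest in monosomes, 867 and 662. The next in density had 86 codons, with 2316 and 3041 monosome counts and 218 and 151 disome counts. Each had a transcript of more than 100 codons within 5 rows of it in the table with at least as many counts in every library, and they stood within 5 rows of each other.

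Others of high density were not alike in disomes. A 45-codon transcript had 824 and 1283 monosome counts and 64 and 48 disome counts, and a 68-codon one had 1006 and 1141 monosome counts and 63 and 50 disome counts. A 92-codon transcript had 1294 and 2027 monosome counts and as many as 430 and 367 disome counts. Among the 8 densest, the fitted ratio described next was above 0 in 2, the 71-codon and the 92-codon transcripts, and below 0 in 6.

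**Figure D1:**
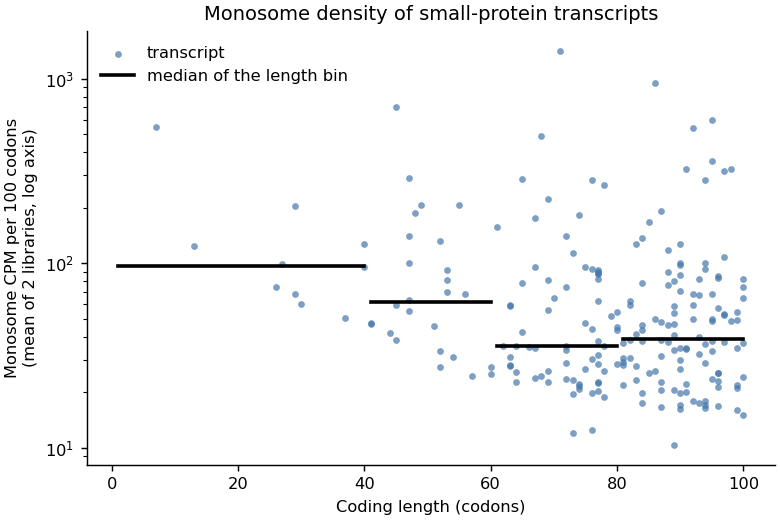
Monosome density (CPM per 100 codons, mean of 2 libraries, log axis) of each of the 221 small-protein transcripts against its coding length in codons, with the median of each length bin as a black bar. The medians are 97.0 at 1 to 40 codons, 61.2 at 41 to 60, 35.6 at 61 to 80 and 39.0 at 81 to 100, and the empty lower left corner is set by the minimum of 100 counts.

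The disome-to-monosome ratio of a transcript was the log2 ratio of its normalized disome to monosome counts, fitted with edgeR on TMM-scaled libraries over all 16910 transcripts with at least 20 counts. Its 0 is set by the scaling and does not mean equal numbers of stacked and single ribosomes. The small-protein transcripts had a median of −0.39, beside −0.13 over all transcripts tested, and relative to that median it lay at −0.26 on the log2 scale. Of the 221, 96 (43.4%) lay above the median of all tested. The shift depended on the counts required, both of the small-protein transcripts and of those they were set against. For the 126 with at least 200 counts the median was −0.11, or 0.02 relative to all tested, where 20 counts sufficed. In a fit without the minimum of 20 counts the 221 lay at −0.04 relative to all tested, whose median was then −0.53. That comparison set also held transcripts with fewer counts, so neither value shows that the shift is absent at like counts. The ratios spread widely, with quartiles of −1.09 and 0.58 and an interquartile range of 1.68, beside 1.39 over all tested and 1.21 over longer transcripts with at least 100 counts.

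In single pairs of libraries scaled to their totals alone, the median small-protein ratio was −0.51 for disome 1 over monosome 1 and −0.38 for disome 2 over monosome 2, beside −0.32 and −0.28 for longer transcripts. The crossed pairs gave −0.57 for disome 1 over monosome 2 and −0.42 for disome 2 over monosome 1, beside −0.31 and −0.31. Set against all longer transcripts together, the small-protein median was the lower one in each of the 4 pairs. Ratios from the separate pairs ranked the 221 transcripts alike, with a Spearman's rho of 0.79 between disome 1 over monosome 1 and disome 2 over monosome 2, beside 0.76 over 8415 longer transcripts. These coefficients run across transcripts of the same libraries, which are not independent replicates.

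**Figure D2:**
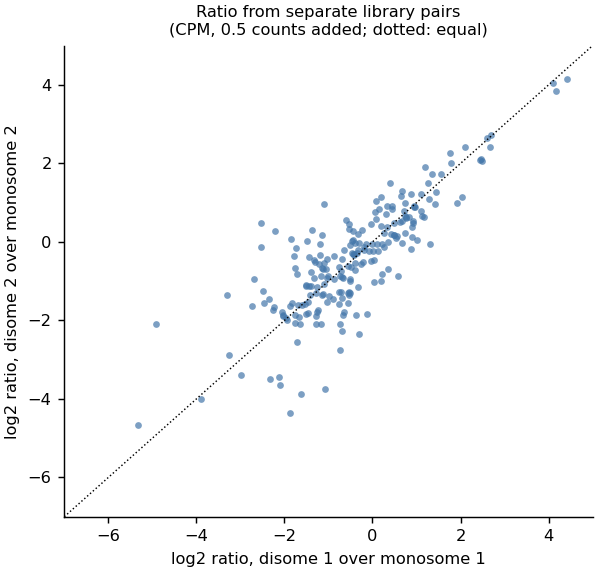
Log2 disome-to-monosome ratio of each of the 221 small-protein transcripts from replicate 1 (x axis) and from replicate 2 (y axis), from CPM with 0.5 counts added, with the line of equality dotted. The points follow the line (Spearman's rho 0.79) and scatter most at low ratios, where disome counts are few.

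Compared with the other length classes under the same count minimum, the small proteins had the lowest median of the fitted ratio and a wide spread. Median ratios were 0.01 at 101 to 200 codons (n = 1192), −0.02 at 201 to 400 (n = 2366), −0.12 at 401 to 1000 (n = 3505), −0.33 at 1001 to 2000 (n = 1105) and −0.23 above 2000 codons (n = 247). The interquartile range was 1.68 in the small proteins, 1.56 at 101 to 200 codons, 1.78 within it at 101 to 120 codons, and 0.853 above 2000 codons. A ratio beyond 2 in either direction was seen in 13.1% of the small proteins, 9.14% of transcripts of 101 to 200 codons and 15.8% of those of 101 to 120 codons. Just past the limit, the median was 0.08 at 101 to 120 codons. In single pairs of libraries scaled to their totals, the small proteins were not always lowest. For disome 1 over monosome 1 the median was −0.53 at 1001 to 2000 codons, beside −0.51 in the small proteins. It was −0.49 beside −0.38 for disome 2 over monosome 2, and −0.55 beside −0.42 for disome 2 over monosome 1. For disome 1 over monosome 2 the small proteins were lower, at −0.57 beside −0.50. Whether the classes differ was not tested.

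**Figure D3:**
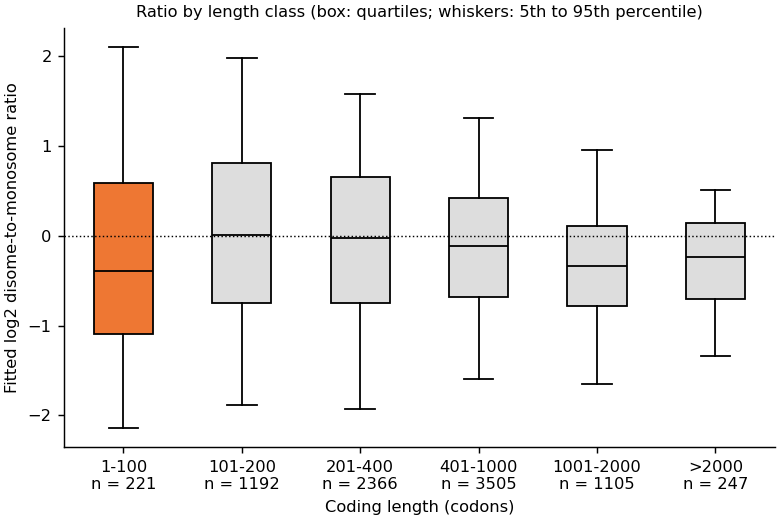
Fitted log2 disome-to-monosome ratio by class of coding length in codons, for distinct transcripts with at least 100 counts. Boxes span the quartiles with the median as a line and whiskers reach the 5th and 95th percentiles, with the small proteins (orange, median −0.39, n = 221) lower at the median than the other classes (gray, −0.33 to 0.01).

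At an FDR of 0.01, the quasi-likelihood test of edgeR, with p-values adjusted over all 16910 transcripts by Benjamini-Hochberg, called 48 of the 221 small-protein transcripts higher in disome relative to monosome footprints (21.7%) and 46 lower (20.8%), and 127 passed in neither direction. Over all tested, 11.8% were called higher and 9.73% lower. Counts are lower in that background, and over distinct transcripts with at least 100 counts 16.9% were called higher and 16.2% lower. In this fit, calls in both directions were thus more frequent among the small proteins than in either background, a difference that was not itself tested. At 101 to 200 codons the shares were 27.5% higher and 16.6% lower, and within that class they were 28.4% and 19.1% at 121 to 150 codons. Above 2000 codons they were 3.24% higher and 17.4% lower. When libraries were scaled to their totals without TMM, the split of the small-protein calls was 38 higher and 63 lower, and without the minimum of 20 counts it was 38 and 54. The balance between the directions thus changed with the scaling and with the filter. The median ratio of all tested moved too, from −0.13 to −0.35 with library totals and to −0.53 without the minimum. The change of balance is therefore not read as particular to the small proteins. TMM factors were computed again on the transcripts kept, so a change of filter also changed the scaling. DESeq2 called 36 higher and 19 lower, and edgeR's lower calls numbered 23 without disome replicate 1 and 24 without disome replicate 2. The shares called over all transcripts in these other fits are not given here, so none of their counts can be set against a background. Of the 94 called in the main fit, 93 had the same sign in every pairing of a disome with a monosome library.

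By CPM alone, the lower disome library exceeded the higher monosome library in 59 small-protein transcripts (26.7%) and the higher disome library fell short of the lower monosome library in 121 (54.8%). The same held for 24.6% and 52.5% of the distinct transcripts with at least 100 counts, and for 22.3% and 46.5% of all tested. These shares were close to the background.

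The transcripts at the disome-rich end numbered 12 with a log2 ratio over 2, and the test called each of them. They had 45 to 92 codons, 47 to 911 disome counts and 57 to 457 monosome counts over the replicates, and 3 of the 221 small-protein transcripts had more disome than monosome counts outright, although the monosome libraries were sequenced several times deeper.

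ENSDART00000168307.2, with 92 codons, had 148 and 120 counts in disome replicates 1 and 2 and 40 and 70 in monosome replicates 1 and 2. In CPM these were 313 (95% Clopper-Pearson interval 264 to 368) and 329 (273 to 393) in disomes, and 14.5 (10.4 to 19.8) and 18.4 (14.3 to 23.2) in monosomes. The disome libraries were far above the monosome libraries and the groups did not overlap. The fitted log2 ratio was 4.48 with an SE of 0.180 and an adjusted p of 1.02e-131 in edgeR's quasi-likelihood test, and it lay between 4.35 and 4.70 when any library was left out. None of the transcripts listed within 5 rows of it came near its disome counts, the richest being a 624-codon transcript with 6 and 4.

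ENSDART00000031895.5, with 76 codons, had 72 and 62 disome counts and 24 and 39 monosome counts. In CPM these were 152 (119 to 192) and 170 (130 to 218) in disomes, and 8.73 (5.59 to 13.0) and 10.2 (7.27 to 13.98) in monosomes. Again the groups did not overlap. The fitted log2 ratio was 4.28 with an SE of 0.244 and an adjusted p of 2.25e-66 in edgeR's quasi-likelihood test, with a range of 4.19 to 4.43 over the fits with a library left out. Transcripts of 419 codons listed beside it had ratios of 1.85 and 1.98 on 9 and 5 disome counts.

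A 47-codon transcript had the most disome counts at this end, 565 and 346, beside 181 and 251 monosome counts. Its log2 ratio was 4.26, with an adjusted p of 5.90e-283 in edgeR's quasi-likelihood test and a range of 4.04 to 4.43 with a library left out. Another 3 of the 12 were 77-codon transcripts listed next to each other. They had the same 164 and 114 disome counts and nearly the same monosome counts, with ratios of 2.48 to 2.51. Whether these neighbors share footprints was not tested, and with such counts they are better read as 1 observation than as 3.

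At the other end, 17 small-protein transcripts had a log2 ratio under −2, and 16 of them were called. They had 7 to 96 codons, 0 to 14 disome counts and 102 to 744 monosome counts. For 12 of the 17, a transcript of more than 100 codons with at least as many counts in both monosome libraries stood within 5 rows, and the same held for 8 of the 12 at the disome-rich end. With at least as many counts required in every library, it held for 12 of the 17 and for 4 of the 12. Each rule uses counts that enter the ratio, so neither can be used to compare the ends.

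ENSDART00000146801.2, the shortest of all with 7 codons, had 0 and 0 disome counts and 116 and 132 monosome counts. Its monosome level was 42.2 CPM (34.9 to 50.6) in replicate 1 and 34.6 CPM (29.0 to 41.04) in replicate 2. A floor of 3 counts amounted to 6.34 and 8.22 CPM in disome replicates 1 and 2. The Clopper-Pearson upper limits at 0 counts were higher, at 7.80 and 10.1 CPM. Set at 3 counts over both disome libraries, its disome level was 10.6-fold lower than its monosome level. That value depends on the floor and is not a lower bound. The counting interval of the log2 ratio from library totals ended at −3.09, a smaller difference. The adjusted p was 1.98e-10 in edgeR's quasi-likelihood test, and the fitted ratio is not given as a size because it depends on the prior count. A coding sequence of this length is shorter than the stretch that 1 ribosome covers. Whether this length or footprints shared with neighbors bear on its disome counts was not tested. Its low disome level and its call therefore say nothing of stalling. The 342-codon transcripts listed on either side of it had 1804 disome counts in replicate 1, 1290 or 1292 in replicate 2, 4393 and 5805 monosome counts, and a ratio of 1.46.

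ENSDART00000164984.2, with 37 codons, also had 0 and 0 disome counts, and 43 and 83 monosome counts, or 15.6 CPM (11.3 to 21.1) and 21.8 CPM (17.3 to 27.0). Its disome level was 5.36-fold lower on the same floor, and the counting interval of its log2 ratio ended at −2.10. The adjusted p was 1.07e-05 in edgeR's quasi-likelihood test. The 323-codon and 331-codon transcripts listed just before it had 83 and 63 disome counts. No other small-protein transcript lacked disome counts in both libraries.

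**Figure D4:**
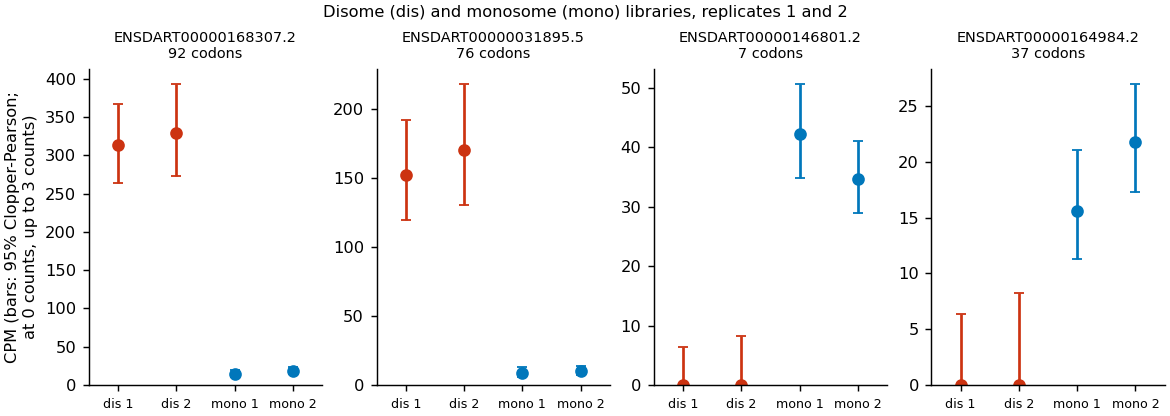
CPM in each of the 4 libraries of the 2 transcripts with the highest and the 2 with the lowest fitted ratio, with 95% Clopper-Pearson intervals and, at 0 counts, bars up to the value of 3 counts. The disome libraries lie at 313 and 329 CPM for ENSDART00000168307.2 and at 152 and 170 CPM for ENSDART00000031895.5, above the monosome libraries, and at 0 for the other two.

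Less extreme cases with more counts were an 84-codon transcript with 11 and 3 disome and 333 and 411 monosome counts, at a ratio of −2.54. A pair of neighboring 96-codon transcripts had 5 and 2 against 254 and 275 counts and 4 and 3 against 249 and 267 counts, at ratios of −3.05 and −3.01. Disome counts were low in both replicates of each.

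Within the class, the rank correlation of the ratio with length was weak. Spearman's rho between ratio and codons was −0.0498 over the 221 transcripts, and −0.0629, −0.0274, −0.0947 and −0.0654 in the 4 pairs of libraries. Without the 10 transcripts of at most 40 codons it was −0.0580, and over the 1192 transcripts of 101 to 200 codons it was 0.00959. Values this near 0 give no clear relation between length and ratio over the 221. Sparse disome counts weaken a rank correlation, so a relation could be missed.

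The bin medians stepped down with length all the same. They were 0.10 at 1 to 40 codons (n = 10), −0.11 at 41 to 60 (n = 26), −0.26 at 61 to 80 (n = 71) and −0.54 at 81 to 100 codons (n = 114). The quartiles overlapped throughout, spanning −2.21 to 0.52, −1.24 to 0.64, −1.0 to 0.80 and −1.09 to 0.51 in the same order. The upper quartiles were close to each other, and calls in both directions were made in every bin. At 1 to 40 codons 2 were called higher and 3 lower, at 41 to 60 it was 6 and 3, at 61 to 80 it was 15 and 14, and at 81 to 100 it was 25 and 26.

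**Figure D5:**
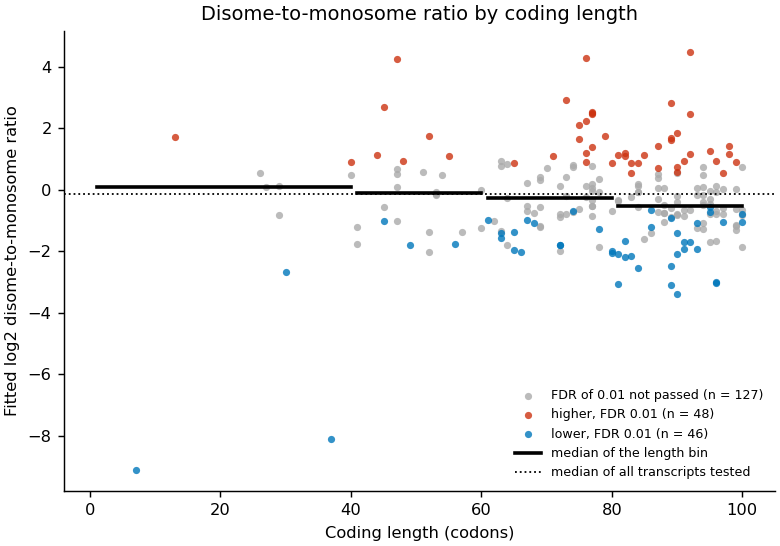
Fitted log2 disome-to-monosome ratio of each small-protein transcript against its coding length in codons, colored by edgeR's call at an FDR of 0.01 (48 higher, 46 lower, 127 neither), with bin medians as black bars and the median of all tested (−0.13) dotted. The bin medians fall from 0.10 to −0.54 within a much wider scatter, and the 2 lowest points had 0 disome counts, so their height depends on the prior count.

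Monosome density fell with length, with a rho of −0.176 over the 221 transcripts and of −0.151 and −0.177 in the monosome libraries. Length stands in the denominator of density, and monosome CPM itself had a rho of 0.157 with length. Without the 10 shortest, the rho of density was −0.110. The higher densities at the short end thus lie where the count minimum per codon is also highest. Disome density, formed in the same way, had a rho of −0.124 with length, and its bin medians were 90.4, 58.1, 37.1 and 25.1 CPM per 100 codons from the shortest to the longest bin.

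The 10 shortest coding sequences, of at most 40 codons, differed among themselves. A 13-codon transcript had 23 and 16 disome and 33 and 77 monosome counts, with a log2 ratio of 1.71 and an adjusted p of 1.64e-06 in edgeR's quasi-likelihood test. A 40-codon transcript had 42 and 27 disome and 129 and 207 monosome counts, with a ratio of 0.91 and an adjusted p of 3.94e-04 in the same edgeR test. A 30-codon transcript had 2 and 0 disome and 44 and 76 monosome counts, with a ratio of −2.68 and an adjusted p of 2.46e-03 in the same edgeR test. Together with the 7-codon and the 37-codon transcripts, these were the 5 called. The other 5, of 26 to 40 codons, had ratios of −0.81 to 0.54 and did not pass. Each of the 10 had a longer transcript within 5 rows with at least as many counts in every library. Whether the disome counts of the 13-codon transcript are shared with such a neighbor was not tested, and positions of footprints were not analysed. Its call therefore says nothing of stacking on its own short coding sequence.

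Rows of the table that stand next to each other often have equal counts, as transcripts with shared footprints would. Each small-protein transcript was therefore compared with its surroundings. For 150 of the 221 (67.9%), a transcript of more than 100 codons within 5 rows had at least as many counts in every library. Such a neighbor, longer than the transcript itself, was also found for 59.8% of transcripts of 101 to 200 codons. Over all distinct transcripts with at least 100 counts the share was 39.3%, so the trait is not particular to the small proteins. Those 150 had a median ratio of −0.52, a median density of 35.6 and a median total of 188 counts. Of them, 22 (14.7%) were called higher and 26 (17.3%) lower, beside 16.9% and 16.2% over those distinct transcripts. The 71 without such a neighbor had a median ratio of 0.06, a median density of 67.2 and a median total of 428 counts, with 26 called higher (36.6%) and 20 lower (28.2%). This split uses the disome counts, so transcripts with few of them fall among the 150 by construction, and it says nothing of where the lower median of the class lies.

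Drawn from the monosome counts alone, the gap in median ratio was smaller. These counts are the other side of the ratio. Transcripts with few of them, and so with higher ratios, fall among those with a longer neighbor by construction. This split too says nothing of where the lower median of the class lies. The 160 transcripts with a longer neighbor had a median ratio of −0.40 and the 61 without had −0.18, both below the −0.13 of all tested. Of the 61, 19 (31.1%) were called higher and 20 (32.8%) lower. Over distinct transcripts with at least 100 counts it was 16.9% and 16.2%. The 61 had a median total of 450 counts, beside 325.5 over those distinct transcripts, so these shares are not at like counts. Median densities were 35.6 in the 160 and 74.5 in the 61. Inside the 61, the rho between ratio and length was −0.269 and that between density and length was 0.124. Its bin medians of the ratio were 0.85 at 41 to 60 codons (n = 6), −0.65 at 61 to 80 (n = 16) and −0.48 at 81 to 100 codons (n = 39). The 6 shortest ranged from −0.56 to 4.26 and overlapped both other bins. The bin medians of the ratio in the 150 did not step down evenly, at 0.10, −0.59, −0.43 and −0.60 from the shortest bin on. Those in the 71 did, at 0.85, 0.32 and −0.08 from 41 to 60 codons on. In the 71 the rho values were −0.270 and 0.114, and in the 150 they were −0.00817 and −0.377. Density thus fell with length in the transcripts with a longer neighbor and not in those without, but this contrast cannot be separated from the count minimum. All 10 transcripts of at most 40 codons have a longer neighbor, and the median total was 188 counts in the 150 and 428 in the 71. The part that shared footprints have in these values was not tested.

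At the limits of the class, values were mixed. The 6 transcripts of 100 codons had a median ratio of −0.81, and the 3 of them with most counts had ratios of −1.05, −0.66 and −0.80 and densities of 64.5, 74.7 and 82.2 CPM per 100 codons. The 7 transcripts of 101 codons had a median of 1.09. Of the 3 of these with most counts, 2 nearly identical ones had 464 disome counts in replicate 1, ratios of 1.09 and a density of 543, and the other had a ratio of −1.86 and a density of 45.6. Just inside the count minimum, totals of 100, 101 and 102 counts went with ratios of −1.37, −1.81 and −1.38, and just outside, totals of 98, 99 and 99 counts went with 0.60, 0.46 and −0.12.

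The monosome replicates of the small proteins differed by more than counting error. The chi-square per degree of freedom between replicates was 3.54 over the 221 small-protein transcripts, beside 2.01 over 8415 longer distinct transcripts and 3.29 over the 1192 of 101 to 200 codons, all with at least 100 counts in total. This measure grows with counts, and the sets were not matched on monosome counts. In the disome libraries it was 1.16 over the 116 small-protein transcripts with at least 20 disome counts, beside 1.28 over longer transcripts and 1.35 at 101 to 200 codons. Densities in the monosome libraries still ranked alike, with a rho of 0.94 between replicates, and disome CPM had a rho of 0.92.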

How the data were processed

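Reads were trimmed by the authors with fastp and aligned to GRCz11 by STAR (version 2.7.0a in the submitters' processing notes), keeping reads of a single locus with up to 1 mismatch. They deposited, per transcript and library, the coding length in codons and the raw count of footprints on the coding sequence. The files hold no normalization, and each is 1 library. How a footprint that fits several transcripts was counted is not given in the sources used here, and neighboring transcripts often have equal counts.

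Counts of the 4 libraries were fitted with edgeR 4.0.16 in R 4.3.3 (TMM, quasi-likelihood test, group only, FDR of 0.01 by Benjamini-Hochberg) over every transcript whose counts summed to 20 or more (16910 transcripts), with library totals taken over the whole table. The small-protein transcripts were read from that fit and no set test was run. An SE given with a ratio was worked out from that ratio and the F statistic of its quasi-likelihood test. CPM used the library totals, and a level of 0 was set against 3 counts. Alternatives were DESeq2 1.42.0, library totals, other minimums and length limits, thinned monosome counts, coding length less 10 codons, a block for the replicate number and the omission of each library. The fit was also run on simulated data with planted changes. Their dispersion was not taken from these libraries, so that run does not bear on the calls. Figures were drawn with matplotlib 3.10.9 and intervals computed with scipy 1.17.1.

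The members and lists were chosen with earlier results of these data known. Because no table used here pairs the transcripts with gene symbols, the planned gene lists and marker lists were not applied and gave no counts. By the rule for this case, identifiers are printed only for the 2 called transcripts with the highest and the 2 with the lowest ratio among those with the same sign in every pairing of libraries. Other transcripts are described by length and counts, and the 47-codon, 77-codon, 84-codon and 96-codon ones were chosen after their values were seen. Positions of footprints along the coding sequence were not analysed.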

Additional observations from a re-analysis of the deposited data

How the results depend on the processing

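The calls of the 4 named transcripts held in every setting run, except that ENSDART00000164984.2 had too few counts to be tested after thinning, and no small-protein transcript was called in opposite directions. DESeq2 called 36 higher and 19 lower, all among those of edgeR, so the 46 lower calls rest partly on the tool. With library totals the median ratio was −0.61 (−0.26 relative to all tested). Without the count minimum it was −0.56 (−0.04 relative), where the median of all tested was −0.53. With monosome counts thinned to the disome depth (202 transcripts), the median was −0.23 and the rho of ratio with length −0.117. With a member minimum of 50 counts the median was −0.56, that rho 0.0492, the density 28.7 and the share difference 0.163 percentage points. With 200 counts the median was −0.11, the density 75.2 and its rho with length −0.343. A limit of 80 codons (107 transcripts) gave 23 higher (21.5%), 20 lower (18.7%) and a median of −0.18. A limit of 120 codons (392 transcripts) gave 102 higher (26.0%), 73 lower (18.6%) and a median of −0.17. Coding length less 10 codons gave a density of 52.4 and a rho of −0.215, and keeping transcripts with the same counts gave a rho of density with length of −0.214.

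Leaving out each library in turn gave 32 to 41 higher and 23 to 35 lower calls, with 23 lower without disome replicate 1 and 24 without disome replicate 2, where 1 disome library is left and is assumed to vary like the monosome libraries. The median ratio was −0.41 to −0.31, its rho with length −0.0798 to −0.0375, the density 44.9 to 45.6, its rho −0.177 to −0.151 and the share difference 0.190 to 0.232 points.

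Alternatives chosen after seeing the data were these. One transcript per run of 5 rows gave 38 higher (20.8%) and 39 lower (21.3%) calls of 183. The rho of ratio with length was then 0.0207, the density 40.6, the density rho −0.112 and the share difference 0.183. Without transcripts with a longer neighbor there were 26 higher and 20 lower of 71, a median ratio of 0.0624, rho values of −0.270 and 0.114, a density of 67.2 and a share difference of 0.189. Without those of at most 40 codons, the density was 42.3 and its rho −0.110. These alternatives also held fewer transcripts, and the cause of the shifts was not tested.

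With the replicate number as a block there were 44 higher and 45 lower calls and a median of −0.39. The authors describe additional disome libraries that correspond to earlier monosome libraries, but the labels give replicate numbers only. Deviations of same-numbered libraries had a correlation of −0.0186 over 8533 transcripts. Counting noise in sparse disome counts pulls such a value toward 0, so it cannot exclude a pairing. Depth limits the disome side, where 63 of the 221 transcripts had fewer than 10 counts.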
